A study of Homo sapiens with 12 samples.

Results

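Matrix metalloproteinases (MMPs) and their tissue inhibitors (TIMPs) were examined in macrophage-like THP-1 cells with and without a CRISPR/Cas9 knockout of SDC3, which encodes the cell-surface heparan sulphate proteoglycan syndecan-3. The 10 genes were MMP1, MMP2, MMP7, MMP9, MMP12, MMP14, MMP19, TIMP1, TIMP2 and TIMP3. They were found by matching the Ensembl identifiers of the count table to gene symbols, and are 10 of the 27 MMP and TIMP genes looked up and of the 58051 genes in the table. The set was chosen by its measured CPM differences between knockout and wild type, among them the higher MMP7 of knockout cells in both treatments, so those differences are described here with no test. The responses to interferon-γ (IFN-γ) are tested. Their difference between genotypes is tested as well, but it is made of the same knockout and wild-type differences that the choice used. Its p-values are therefore not free of that choice.

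THP-1 is a human monocytic leukaemia line. All cells were differentiated with the phorbol ester PMA at 20 ng/ml for 24 h, then kept in fresh medium. The 4 groups of 3 libraries each were SDC3 knockout cells given PMA and then recombinant human IFN-γ on the following day, SDC3 knockout cells given PMA alone, wild-type cells given PMA and IFN-γ, and wild-type cells given PMA alone. The knockout was made by CRISPR/Cas9. The dose and duration of IFN-γ, the number of edited lines or clones and whether replicates were separate cultures are not given in the labels, so p-values measure the spread between these libraries. The groups without IFN-γ are called PMA-only below.

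MMPs are zinc-dependent endopeptidases that are made as inactive proenzymes and, once activated, cut collagens, laminins, elastin and other proteins of the extracellular matrix as well as cell-surface and secreted proteins. TIMPs bind the active site of MMPs and block them. Macrophages are a major source of MMP9 and MMP12 in inflamed tissue, and IFN-γ and PMA are both known to act on MMP genes, PMA through AP-1 sites in several of their promoters.

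The libraries held 23616738 to 29426415 counted reads. SDC3 itself stood at 237, 237 and 244 counts-per-million (CPM, scaled between libraries by the TMM method) in knockout cells with IFN-γ and at 578, 590 and 572 CPM in wild-type cells with IFN-γ. With PMA only it stood at 49.9, 48.1 and 43.9 CPM in knockout cells, against 196, 252 and 241 CPM in wild-type cells. SDC3 transcripts were thus lower in knockout cells in both treatments and did not reach 0, and the counts do not show which transcripts carry an edit. Of 9 macrophage markers, 8 had a mean of at least 1 CPM in every group, and the summed level of all 9 was 4879 to 5041 CPM in knockout cells and 4893 to 5015 CPM in wild-type cells with IFN-γ, and 4043 to 4163 CPM in knockout cells and 4117 to 4205 CPM in wild-type cells with PMA only. CD68 was the exception, at a mean of 0.131 to 0.539 CPM in the groups. Its exons were not checked for overlap with other genes. Single markers differed between genotypes under similar sums. With IFN-γ 1 was called higher and 4 lower in knockout cells (all genes: 22.9% and 24.3%). With PMA only 3 were called higher and 5 lower (all genes: 25.4% and 24.8%). The median log2 difference of the markers was -0.25 in both. With IFN-γ CD163 averaged 16.9 CPM in knockout cells and 40.6 CPM in wild-type cells, MRC1 10.5 CPM in knockout cells and 37.8 CPM in wild-type cells, and PTPRC 1285 CPM in knockout cells and 882 CPM in wild-type cells. The part of these differences in the MMP and TIMP values was not tested. Of 7 fibroblast markers, LUM was at 0 in every group, 2 or 3 reached a mean of 1 CPM in each group, and the list summed to at most 24.2 CPM in any library. With IFN-γ COL1A1 averaged 17.3 CPM in knockout cells and 7.92 CPM in wild-type cells, and PDGFRA 4.29 CPM and 8.47 CPM. Lymphocyte markers summed to at most 4.16 CPM.

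The start regions of the genes on which the results turn are shown for reference. RefSeq's table on GRCh38.p14 held a start region for 4 of the 10 genes, MMP7, MMP14, TIMP1 and TIMP3. The 250 bases before the annotated start are printed 5′ to 3′ for MMP7, which had the largest difference between genotypes, and for TIMP3 and MMP14, which answered IFN-γ differently in the 2 genotypes. They lie at chr11:102530748-102530997 on the minus strand (MMP7), chr22:32801455-32801704 on the plus strand (TIMP3) and chr14:22836335-22836584 on the plus strand (MMP14). Capitals mark every match on either strand to the AP-1 site TGANTCA, the GC box GGGCGG, the TATA box TATAAA or the interferon-γ-activated site TTCNNNGAA.
MMP7: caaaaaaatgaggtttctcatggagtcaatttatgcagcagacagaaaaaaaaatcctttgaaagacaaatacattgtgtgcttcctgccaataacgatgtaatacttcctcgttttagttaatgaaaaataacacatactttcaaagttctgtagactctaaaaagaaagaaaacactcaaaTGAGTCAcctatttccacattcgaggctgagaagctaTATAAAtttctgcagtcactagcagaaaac
TIMP3: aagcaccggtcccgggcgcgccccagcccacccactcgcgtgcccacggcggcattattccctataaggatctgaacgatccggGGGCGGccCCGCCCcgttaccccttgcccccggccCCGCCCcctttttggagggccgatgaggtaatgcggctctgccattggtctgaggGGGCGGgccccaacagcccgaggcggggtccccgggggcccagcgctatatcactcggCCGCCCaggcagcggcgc
MMP14: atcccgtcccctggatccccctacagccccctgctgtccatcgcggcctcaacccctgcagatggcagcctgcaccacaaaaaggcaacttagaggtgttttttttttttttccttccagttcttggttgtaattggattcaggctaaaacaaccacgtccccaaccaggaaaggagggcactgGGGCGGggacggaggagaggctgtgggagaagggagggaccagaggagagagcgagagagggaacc

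The MMP7 region held an AP-1 site, TGAGTCA, 67 to 61 bases before the start, and a TATA box 30 to 25 bases before it, and its GC content was 33.6%. The TIMP3 region had a GC content of 72.4% and 5 GC boxes, and that of MMP14 had 56.8% and 1 GC box. The TIMP1 region held 2 GC boxes. Among 35116 RefSeq start regions of the same length, 6.57% held the AP-1 letters, 42.6% a GC box, 10.7% the TATA letters and 6.57% the interferon-γ-activated site, which none of the 4 regions held. No matched letters overlapped. These matches describe the letters of the windows only.

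Levels of different genes were compared per transcript length, as transcripts-per-million (TPM) within a library. MMP9 (gelatinase B, which cuts denatured collagen and basement membrane collagen) was the highest member in all 12 libraries. It averaged 4512 ± 143 TPM in knockout cells with IFN-γ, 5160 ± 210 in knockout cells with PMA only, 6033 ± 20.4 in wild-type cells with IFN-γ and 6997 ± 236.5 in wild-type cells with PMA only (SD, n = 3 each). TPM is not scaled between libraries, so treatments are compared on the CPM scale further on. The means placed MMP9 at rank 12, 8, 5 and 2 of all genes in those groups. MMP14 and TIMP1 followed in every group at 707 to 1377 TPM per library, and then TIMP2 at 216 to 422 TPM. Their order was clear of the spread between libraries except in PMA-only knockout cells, where TIMP1 (1278 to 1328 TPM) and MMP14 (1233 to 1281 TPM) overlapped.

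The middle of the order differed between groups. In knockout cells with IFN-γ, MMP7 came next, at 86.8 to 95.7 TPM, above MMP2 and MMP19. In wild-type cells with PMA only, MMP7 stood lower, at 10.1 to 22.0 TPM, below MMP2, TIMP3 and MMP19. MMP1 lay between 0.376 and 3.23 TPM, and MMP12 was at or under 0.923 TPM in every library.

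**Figure D1:**
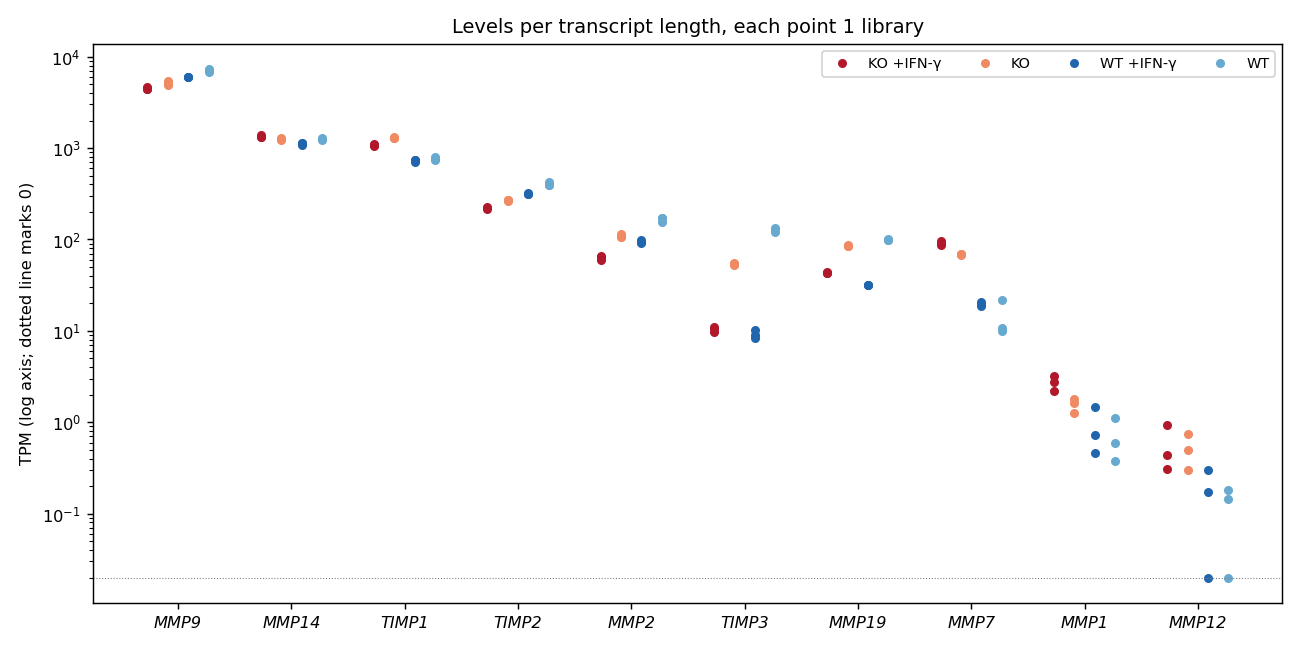
Levels of the 10 genes as TPM on a log axis, 1 point per library, for knockout cells and wild type with and without IFN-γ; points on the dotted line are 0. MMP9 is highest in all 12 libraries, and MMP7 is placed from 10.1 TPM in wild-type cells with PMA only to 95.7 TPM in knockout cells with IFN-γ.

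MMP7 (matrilysin, a small secreted protease best known from epithelia, which cuts elastin, proteoglycans and cell-surface proteins) lies at chr11:102520508-102530753 on the minus strand of hg38, with 6 merged exons of 2323 bases. It stood at 62.5, 56.9 and 58.0 CPM in knockout cells with IFN-γ, against 12.8, 12.3 and 11.6 CPM in wild-type cells with IFN-γ. With PMA only it stood at 37.1, 36.8 and 36.0 CPM in knockout cells, against 11.6, 5.55 and 5.30 CPM in wild-type cells. Every knockout library lay above every wild-type library of the same treatment, and the lowest knockout value, 36.0 CPM, lay above the highest wild-type value, 12.8 CPM, whatever the treatment. The fold difference, knockout over wild type, was 4.82 with IFN-γ (log2 2.27, SE 0.13) and 4.99 with PMA only (log2 2.32, SE 0.14). Replicate 1 of the PMA-only wild type stood apart at 304 reads, against 180 and 158 in the other libraries of its group. Without it the log2 difference with PMA only was 2.75. Because the libraries are bulk RNA, a change in the number of cells with a transcript and a change in its amount per cell cannot be told apart.

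IFN-γ raised MMP7 in both genotypes. In knockout cells the log2 fold change, IFN-γ over PMA only, was 0.69 (SE 0.11, adjusted p = 3.1e-06, edgeR's quasi-likelihood test with Benjamini-Hochberg adjustment over 17119 genes), and all 3 libraries with IFN-γ were above all 3 without. Wild-type cells gave 0.74 (SE 0.15, adjusted p = 0.00012 by the same test), again with no overlap, although the highest PMA-only library, 11.58 CPM, came close to the lowest with IFN-γ, 11.64 CPM. The difference between the responses, knockout minus wild type, was -0.05 (95% interval -0.42 to 0.32, adjusted p = 0.91 by the same test). That comparison hung on replicate 1 of the PMA-only wild type. Without that library the wild-type response was 1.18 and the difference between responses was -0.48 (adjusted p = 0.0029 by the same test).

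Markers of epithelial cells, which are known to make MMP7, were looked at beside it. The 7 markers summed to 180 to 193 CPM in knockout cells and 91.7 to 98.0 CPM in wild-type cells with IFN-γ, and to 39.8 to 41.9 CPM in knockout cells and 27.3 to 29.4 CPM in wild-type cells with PMA only. Only 2 or 3 of the 7 reached 1 CPM in any group, and KRT19 was at 0 in all 4 groups, with EPCAM or CDH1 or both at 0 as well. MUC1 and CLDN7 were the highest of the 7 in every group, so the sum mainly follows these genes. With IFN-γ MUC1 averaged 146.9 CPM in knockout cells and 65 CPM in wild-type cells. With PMA only MUC1 averaged 22.58 CPM in knockout cells and 13.41 CPM in wild-type cells. CLDN7 averaged 36.64 CPM in knockout cells and 27.96 CPM in wild-type cells with IFN-γ. KRT8 went the other way with PMA only, averaging 0.357 CPM in knockout cells and 1.27 CPM in wild-type cells. With IFN-γ KRT8 averaged 2.10 CPM in knockout cells and 2.16 CPM in wild-type cells. Of 3 tested markers 2 were called higher and 0 lower in knockout cells with IFN-γ (all genes: 22.9% and 24.3%). With PMA only 2 were called higher and 1 lower (all genes: 25.4% and 24.8%). Within each treatment the summed level was higher in knockout cells. The part of epithelial cells in the MMP7 values was not tested.

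MMP1 (interstitial collagenase, which opens fibrillar collagen) was near the limit of detection, with 5 to 46 reads per library. It stood at 1.22, 1.55 and 1.76 CPM in knockout cells with IFN-γ, against 0.240, 0.380 and 0.782 CPM in wild-type cells with IFN-γ. With PMA only it stood at 0.576, 0.797 and 0.742 CPM in knockout cells, against 0.267, 0.493 and 0.168 CPM in wild-type cells. Knockout libraries were above wild-type libraries in both treatments, by a log2 difference of 1.70 (SE 0.41) with IFN-γ and 1.16 (SE 0.44) with PMA only. IFN-γ raised MMP1 in knockout cells by 1.09 (SE 0.37, adjusted p = 0.012 by edgeR's quasi-likelihood test), a call that was lost without replicate 3 of knockout cells with IFN-γ (adjusted p = 0.054). The wild-type log2 change was 0.55 (95% interval -0.40 to 1.498, adjusted p = 0.36 by the same test), and the groups overlapped. The difference between the responses was 0.54 (95% interval -0.67 to 1.76, adjusted p = 0.64 by the same test).

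MMP12 (macrophage elastase) did not pass the filter on low counts and was not tested. It had 4, 12 and 6 reads in knockout cells with IFN-γ and 0, 4 and 2 in wild-type cells with IFN-γ. With PMA only it had 6, 10 and 4 reads in knockout cells and 2, 2 and 0 in wild-type cells. The floor of 3 reads corresponds to 0.102 to 0.127 CPM before scaling, so several wild-type libraries lay at or under it, and no fold is given. Mates were counted separately, and 70.4% to 73.3% of the counts from 1 to 19 in a library were even. The low read numbers of MMP12 and MMP1 therefore stand for fewer sequenced fragments than reads.

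**Figure D2:**
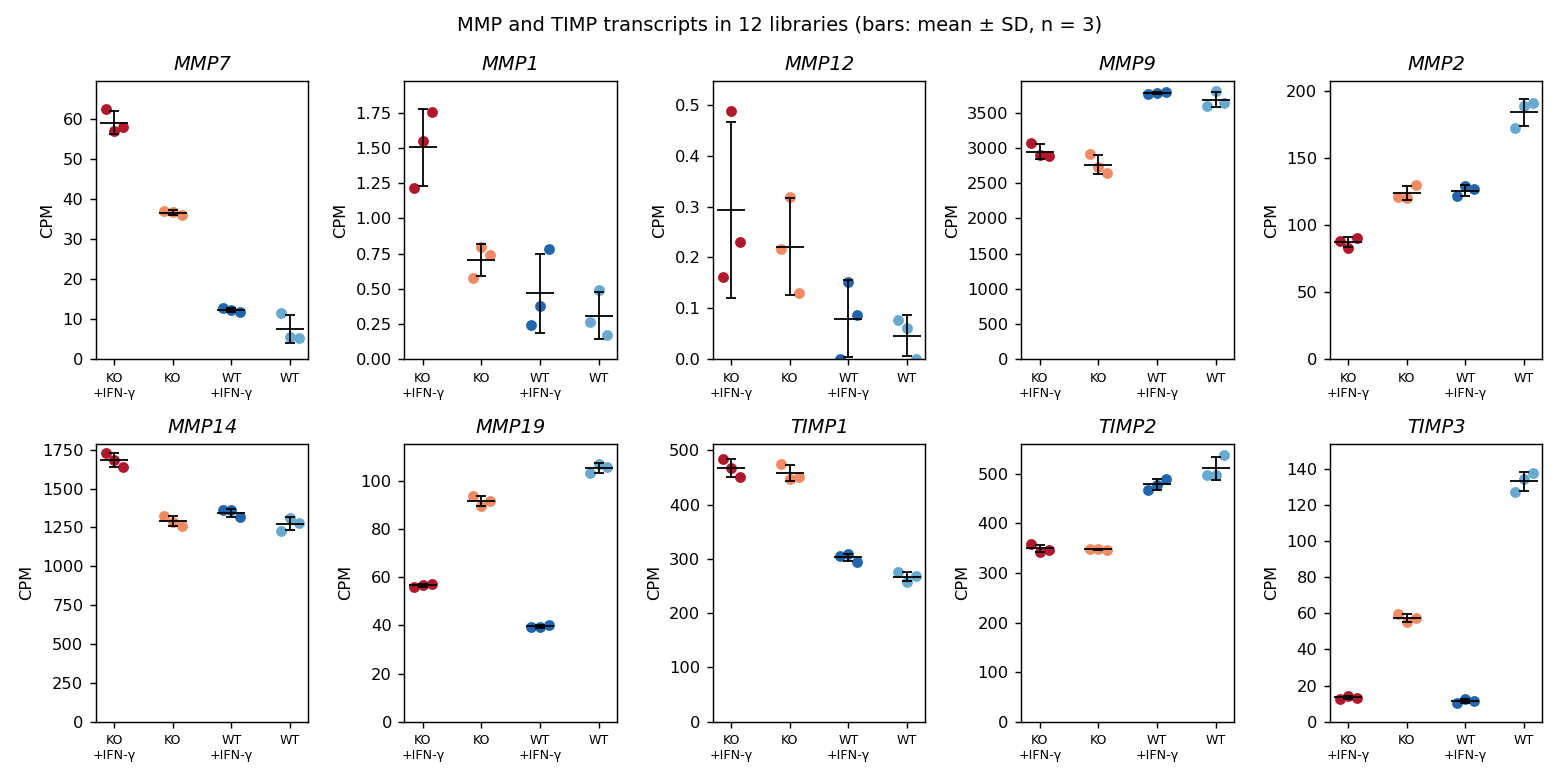
TMM-scaled CPM of each gene, 1 panel per gene with its own axis from 0; points are libraries and bars show the mean ± SD (n = 3). The knockout points of MMP7 (36.0 CPM and above) all lie over the wild-type points (12.8 CPM and below), TIMP3 is at 14.3 CPM or less in all 6 libraries with IFN-γ, and MMP12 is at 0.488 CPM or less.

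MMP1, MMP7 and MMP12 belong to the MMP cluster of chromosome 11, and most other genes of that cluster had few reads or none. MMP20 and MMP27 had 0 reads in all 12 libraries, MMP13 had 2 reads in all, MMP10 had 10 and MMP3 (stromelysin 1) had 38. MMP8 (neutrophil collagenase) averaged 1.06 ± 0.14 CPM in knockout cells and 0.517 ± 0.157 CPM in wild-type cells with IFN-γ, and 1.59 ± 0.26 CPM in knockout cells and 1.58 ± 0.30 CPM in wild-type cells with PMA only (SD, n = 3 each). MMP8 differed between genotypes with IFN-γ by a log2 value of 1.04 (adjusted p = 0.011 by edgeR's quasi-likelihood test), a call lost without replicate 1 of wild-type cells with IFN-γ (adjusted p = 0.054). In wild-type cells MMP8 fell with IFN-γ by 1.60 on the log2 scale (adjusted p = 5.4e-05 by the same test), and its value in knockout cells was -0.58 (adjusted p = 0.070).

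The genes flanking the cluster had these mean levels. With IFN-γ, knockout cells averaged 399 CPM of TMEM123, 55.9 of BIRC2, 22.1 of DCUN1D5, 14.2 of DYNC2H1, 2.30 of YAP1 and 4.10 of BIRC3. Wild-type cells with IFN-γ averaged 315 CPM of TMEM123, 50.5 of BIRC2, 25.1 of DCUN1D5, 13.9 of DYNC2H1, 2.13 of YAP1 and 1.11 of BIRC3. With PMA only, knockout cells averaged 195 CPM of TMEM123, 51.6 of BIRC2, 20.4 of DCUN1D5, 32.0 of DYNC2H1, 2.41 of YAP1 and 0.715 of BIRC3. Wild-type cells with PMA only averaged 201 CPM of TMEM123, 52.2 of BIRC2, 22.5 of DCUN1D5, 23.2 of DYNC2H1, 2.58 of YAP1 and 1.01 of BIRC3. BIRC3, which encodes an inhibitor of apoptosis, differed between genotypes with IFN-γ by a log2 value of 1.89 (SE 0.24, adjusted p = 9.6e-08 by edgeR's quasi-likelihood test). Over the 20 tested genes nearest to MMP7, the median log2 difference between genotypes was 0.17 with IFN-γ and 0.10 with PMA only. Of these genes 8 were called higher and 1 lower in knockout cells with IFN-γ (all genes: 22.9% and 24.3%). With PMA only 5 were called higher and 0 lower (all genes: 25.4% and 24.8%). Their part in the MMP7 values was not tested.

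MMP9 and MMP2, the gelatinases, were lower in knockout cells. MMP9 stood at 3068, 2900 and 2883 CPM in knockout cells, against 3770, 3779 and 3800 CPM in wild-type cells with IFN-γ, and at 2913, 2729 and 2653 CPM in knockout cells and 3605, 3813 and 3647 CPM in wild-type cells with PMA only. The groups did not overlap, and the log2 difference was -0.36 (SE 0.03) with IFN-γ and -0.42 (SE 0.03) with PMA only. MMP2 (gelatinase A) stood at 88.3, 82.8 and 90.4 CPM in knockout cells, against 121, 129 and 127 CPM in wild-type cells with IFN-γ, and at 121, 120 and 129 CPM in knockout cells and 172, 188 and 191 CPM in wild-type cells with PMA only. The log2 difference for MMP2 was -0.53 (SE 0.05) with IFN-γ and -0.57 (SE 0.05) with PMA only, with no overlap in either.

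IFN-γ lowered MMP2 in both genotypes, with a log2 change of -0.50 in knockout cells (SE 0.05, adjusted p = 9.9e-11 by edgeR's quasi-likelihood test) and of -0.55 in wild-type cells (SE 0.05, adjusted p = 7.6e-12). The responses of MMP2 differed by 0.05 (95% interval -0.09 to 0.18, adjusted p = 0.72 by the same test). MMP9 had small values. Its log2 change with IFN-γ was 0.09 in knockout cells (adjusted p = 0.019) with overlapping groups, and 0.04 in wild-type cells (adjusted p = 0.39), and both signs turned when libraries were scaled by their upper quartile or their totals alone. The MMP9 exons share 430 of their bases (18.4%) with the antisense gene SLC12A5-AS1, which had 367 reads in all libraries together.

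MMP14 (a membrane-type MMP that activates proMMP2) was higher in knockout cells only where IFN-γ had been given. It stood at 1728, 1681 and 1641 CPM in knockout cells, against 1359, 1360 and 1314 CPM in wild-type cells with IFN-γ, a log2 difference of 0.32 (SE 0.03). With PMA only it stood at 1325, 1284 and 1261 CPM in knockout cells, against 1228, 1310 and 1280 CPM in wild-type cells, which overlapped (log2 0.02, SE 0.03). IFN-γ raised MMP14 by 0.38 in knockout cells (SE 0.03, adjusted p = 1.5e-11 by edgeR's quasi-likelihood test). The wild-type change was 0.08 (adjusted p = 0.049), which lost its call under 10 of the alternatives tried and turned negative with upper-quartile or total-count scaling. The responses differed by 0.30 (95% interval 0.21 to 0.40, adjusted p = 1.9e-05 by the same test).

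MMP19 (a secreted MMP that cuts basement membrane proteins) fell with IFN-γ in both genotypes, and by less in knockout cells. It stood at 56.1, 56.6 and 57.0 CPM in knockout cells with IFN-γ, against 93.8, 89.6 and 91.6 CPM with PMA only. In wild-type cells it stood at 39.3, 39.2 and 40.1 CPM with IFN-γ, against 103, 107 and 106 CPM with PMA only. The log2 change was -0.70 in knockout cells (SE 0.05, adjusted p = 1.4e-14 by edgeR's quasi-likelihood test) and -1.41 in wild-type cells (SE 0.05, adjusted p = 2.4e-22), and the responses differed by 0.72 (95% interval 0.59 to 0.85, adjusted p = 1.2e-09). The order of the genotypes differed by treatment. MMP19 was higher in knockout cells than in wild-type cells with IFN-γ (log2 0.52, SE 0.05) and lower in knockout cells with PMA only (log2 -0.20, SE 0.04), with no overlap in either.

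Reads of MMP19 share part of their locus with another gene. The opposite-strand gene TMEM198B covers 814 bases (17.4%) of the MMP19 exons and had 7021 reads in all libraries together. The 20 tested genes nearest to MMP19 had a median log2 difference between genotypes of -0.56 with IFN-γ and -0.27 with PMA only. Of these genes 12 were called lower in knockout cells in each treatment (all genes: 24.3% with IFN-γ, 24.8% with PMA only). Their part in the MMP19 values was not tested.

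The inhibitors went apart. TIMP1, a broad inhibitor that also binds proMMP9, was higher in knockout cells, at 485, 467 and 451 CPM against 305, 308 and 295 CPM in wild-type cells with IFN-γ. With PMA only TIMP1 stood at 475, 447 and 451 CPM in knockout cells, against 275, 258 and 268 CPM in wild-type cells. The log2 difference was 0.63 (SE 0.04) with IFN-γ and 0.78 (SE 0.04) with PMA only. TIMP2, which binds MMP14 and proMMP2, was lower in knockout cells, at 358, 343 and 347 CPM against 468, 478 and 490 CPM in wild-type cells with IFN-γ. With PMA only TIMP2 stood at 348, 348 and 347 CPM in knockout cells, against 499, 498 and 537 CPM in wild-type cells. The log2 difference of TIMP2 was -0.45 (SE 0.04) with IFN-γ and -0.56 (SE 0.04) with PMA only. No knockout library overlapped a wild-type library of the same treatment for either gene.

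IFN-γ moved TIMP1 and TIMP2 little. TIMP1 changed by 0.03 in knockout cells (adjusted p = 0.51 by edgeR's quasi-likelihood test) and by 0.18 in wild-type cells (SE 0.04, adjusted p = 0.00021), where total-count scaling turned the sign and upper-quartile scaling ended the call (adjusted p = 0.14). Its responses differed by -0.15 (95% interval -0.26 to -0.04, adjusted p = 0.065), which was past the threshold under 6 of the alternatives. TIMP2 changed by 0.01 in knockout cells (adjusted p = 0.89) and by -0.09 in wild-type cells (SE 0.04, adjusted p = 0.032), a call lost without replicate 1 or 2 of wild-type cells with IFN-γ or replicate 3 of the PMA-only wild type, and in a fit of those libraries alone. Under upper-quartile or total-count scaling both inhibitors fell with IFN-γ in knockout cells.

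TIMP3, the inhibitor that is held in the extracellular matrix and also blocks ADAM17, had the largest response to IFN-γ among the tested members. It stood at 12.6, 14.3 and 13.4 CPM in knockout cells with IFN-γ, against 59.5, 55.3 and 57.3 CPM with PMA only. In wild-type cells it stood at 10.3, 12.6 and 11.2 CPM with IFN-γ, against 127, 134 and 138 CPM with PMA only. With IFN-γ the level was 23.4% of that with PMA only in knockout cells (log2 -2.10, SE 0.07, adjusted p = 5.1e-23 by edgeR's quasi-likelihood test) and 8.55% in wild-type cells (log2 -3.55, SE 0.07, adjusted p = 2.7e-29). The responses differed by 1.45 (95% interval 1.26 to 1.65, adjusted p = 1.3e-12 by the same test). With PMA only TIMP3 was lower in knockout cells, by a log2 value of -1.22 (SE 0.06), with no overlap. With IFN-γ the genotypes overlapped (log2 0.24, SE 0.08). TIMP3 lies inside the SYN3 gene on the opposite strand, which shares no exon base with it and had 16 reads in all libraries.

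**Figure D3:**
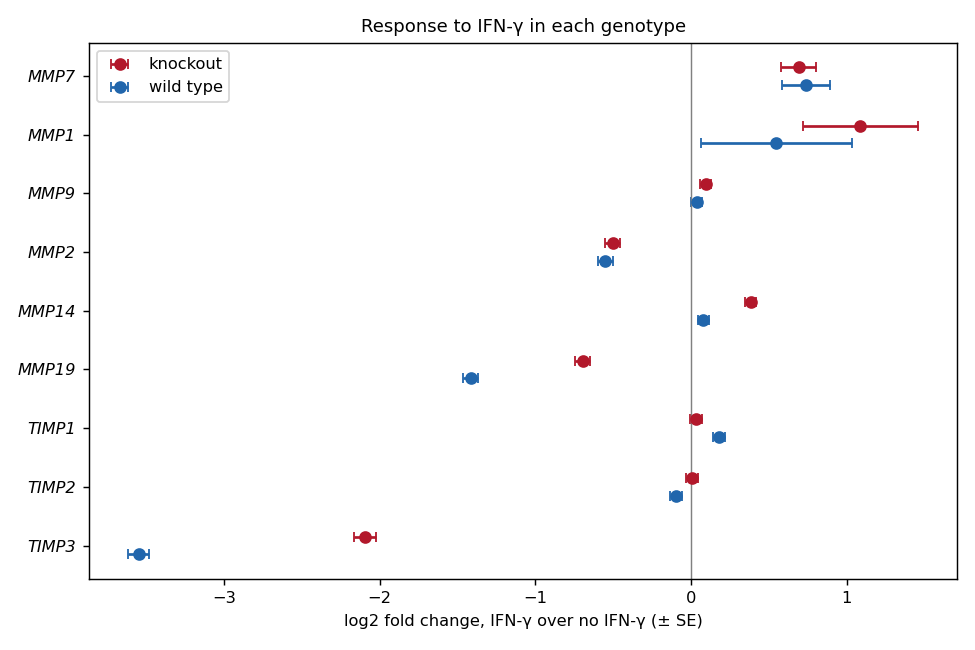
Log2 fold change with IFN-γ over PMA only, in knockout cells and wild-type cells, with SE bars, for the 9 tested genes. TIMP3 is at -2.10 in knockout cells and -3.55 in wild-type cells, MMP19 at -0.70 in knockout cells and -1.41 in wild-type cells; the small values of MMP9, TIMP1 and TIMP2 among knockout cells, and of MMP9, MMP14 and TIMP1 among wild-type cells, change sign under other scalings.

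Over the members as a set, 9 of 10 passed the filter on low counts. With IFN-γ in knockout cells 7 were called, 4 higher and 3 lower, where 61.1% of all tested genes were called, 29.2% higher and 31.8% lower. Of the same members 7 were called in wild-type cells, 3 higher and 4 lower, where 56.5% of all genes were called, 28.6% higher and 27.9% lower. Replicates did not overlap for 3 members that were higher and 3 lower in knockout cells, beside 31.6% and 34.6% of all genes, and for 3 higher and 4 lower in wild-type cells, beside 30.2% and 30.3%. With upper-quartile scaling 3 were higher and 5 lower in knockout cells and 1 higher and 5 lower in wild-type cells, and with totals alone 2 were higher and 6 lower in knockout cells and 1 higher and 6 lower in wild-type cells. The median log2 change of the tested members was 0.03 in knockout cells and 0.04 in wild-type cells, beside -0.05 and -0.02 over all tested genes. The difference between the responses was called for MMP14, MMP19 and TIMP3, all 3 in the direction of a higher value in knockout cells. Of all genes 15.5% were called, 7.61% with a higher value and 7.86% with a lower. This difference is made of the genotype differences used for the choice of members, so nothing is read from the number called.

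Between genotypes the choice of members used these values, so nothing is read from their number. Replicates did not overlap for 5 of the 9 genes, which were higher in knockout cells (26.8% of all genes) and 3 more, which were lower (27.5%) with IFN-γ, and for 3 higher (28.6%) and 5 lower (27.4%) with PMA only. MMP1, MMP7 and TIMP1 were higher, and MMP2, MMP9 and TIMP2 lower, in knockout cells in each comparison. The comparisons share no library, but the choice of members used both, and the number of edited lines is not given. Their agreement is therefore not read as an independent repeat.

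**Figure D4:**
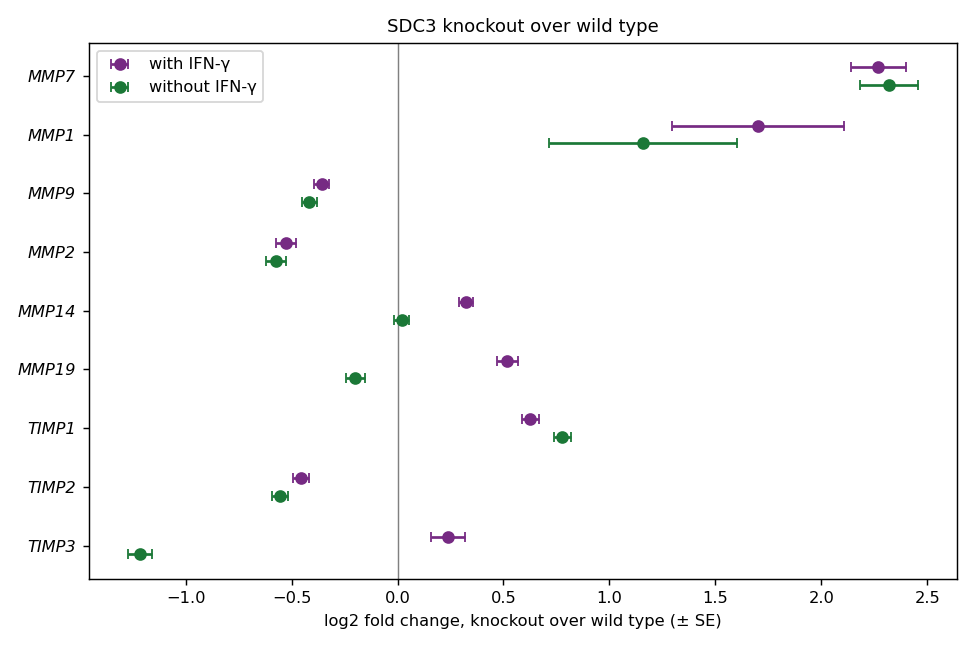
Log2 fold change of knockout cells over wild-type cells, with and without IFN-γ, with SE bars, for the 9 tested genes. MMP7 lies at 2.27 with IFN-γ and 2.32 with PMA only, MMP19 and TIMP3 lie on opposite sides of 0 in the 2 treatments, and MMP2, MMP9 and TIMP2 are below 0 in both.

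Ratios of members within a library do not depend on the scaling between libraries. The summed TPM of the 7 MMPs over that of the 3 TIMPs was 4.56 to 4.64 in knockout cells and 6.83 to 6.98 in wild-type cells with IFN-γ, and 4.04 to 4.19 in knockout cells and 6.38 to 6.98 in wild-type cells with PMA only. MMP9 made up 74.2% to 82.96% of the MMP sum in every library, so the ratio follows MMP9 and TIMP1 more than the other members. MMP9 over TIMP1 was 4.10 to 4.22 in knockout cells and 8.10 to 8.50 in wild-type cells with IFN-γ, and 3.88 to 4.05 in knockout cells and 8.64 to 9.75 in wild-type cells with PMA only. MMP14 over TIMP2 ran the other way, at 5.96 to 6.18 in knockout cells and 3.38 to 3.67 in wild-type cells with IFN-γ, and 4.59 to 4.81 in knockout cells and 3.01 to 3.32 in wild-type cells with PMA only. These are ratios of transcripts, and protein or enzyme activity was not measured.

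**Figure D5:**
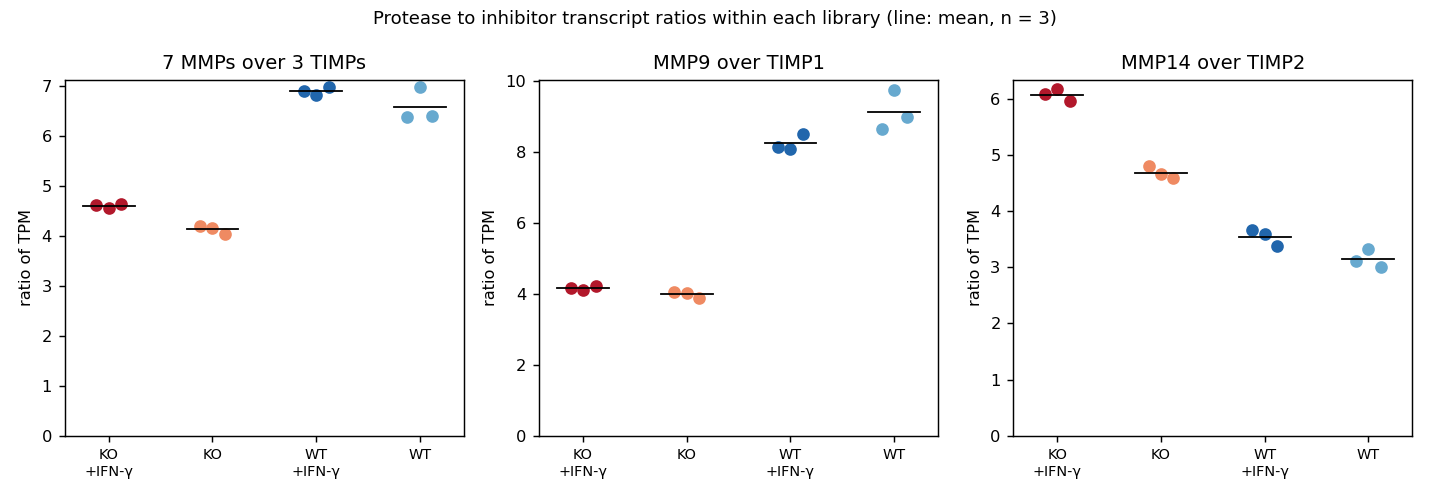
Ratios of TPM within each library, with axes from 0 and the line at the mean of 3 libraries. The knockout lies lower than wild-type cells for all MMPs over all TIMPs (at most 4.64 against at least 6.38) and for MMP9 over TIMP1 (at most 4.22 against at least 8.10), and higher for MMP14 over TIMP2 (at least 4.59 against at most 3.67).

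The genes whose pattern over the 12 libraries was most like that of MMP7 were YY1AP1, EPHA7, KMT2E, UTY and RAB13, with a Pearson r of log2(CPM + 1) of 0.994, 0.992, 0.991, 0.989 and 0.989 among 11440 genes. The 12 libraries form 4 groups, so these values describe the group pattern. EPHA7, an ephrin receptor, averaged 391 CPM in knockout cells and 212 CPM in wild-type cells with IFN-γ, and 320 CPM in knockout cells and 179 CPM in wild-type cells with PMA only, a narrower range than that of MMP7.

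Of the other 17 MMP and TIMP genes looked up, 5 passed the filter and 4 reached a mean of 1 CPM in a group. Besides MMP8 these were MMP15, MMP17 and MMP25, all membrane-bound. MMP15 averaged 20.9 ± 0.7 CPM in knockout cells and 15.4 ± 0.8 CPM in wild-type cells with IFN-γ, and 20.8 ± 1.0 CPM in knockout cells and 14.2 ± 0.4 CPM in wild-type cells with PMA only (SD, n = 3 each). It was higher in knockout cells by 0.45 with IFN-γ (adjusted p = 2.2e-05 by edgeR's quasi-likelihood test) and by 0.55 with PMA only (adjusted p = 4.7e-07). MMP17 was higher in knockout cells by 0.64 (adjusted p = 9.3e-05) and 0.89 (adjusted p = 1.2e-07) in the same comparisons. MMP25 did not differ past the threshold between genotypes (log2 -0.15 and 0.15, adjusted p = 0.25 and 0.29) and rose with IFN-γ, by 0.67 in knockout cells and 0.98 in wild-type cells (adjusted p = 3.8e-06 and 4.8e-09).

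Genes that activate or inhibit MMPs, or clear them, were next. Of 21 listed, 17 were tested. With IFN-γ 5 rose and 7 fell in knockout cells (all genes: 29.2% and 31.8%), and 4 rose and 6 fell in wild-type cells (all genes: 28.6% and 27.9%). A2M, which traps proteases in the extracellular space, rose by 0.84 in knockout cells and 1.04 in wild-type cells (adjusted p = 3.4e-21 and 1.5e-23, edgeR's quasi-likelihood test). FURIN, the convertase that activates membrane-type MMPs, rose by 0.36 in knockout cells and 0.30 in wild-type cells. Both FURIN calls were lost with total-count scaling (adjusted p = 0.21 and 0.33). PLAU, the urokinase that generates plasmin, fell, with a log2 change of -1.43 in knockout cells and -1.37 in wild-type cells. RECK, a membrane-anchored MMP inhibitor, fell as well, by -1.26 in knockout cells and -1.19 in wild-type cells, with an adjusted p of at most 1.1e-13 for PLAU and RECK in each.

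Between genotypes 6 of these 17 genes were higher and 5 lower in knockout cells with IFN-γ, and 8 higher and 7 lower with PMA only. Over all genes 47.2% were called with IFN-γ, 22.9% higher and 24.3% lower, and 50.1% with PMA only, 25.4% higher and 24.8% lower. LRP1, the endocytic receptor that clears MMP9 and other proteases, was lower in knockout cells, with a log2 difference of -0.91 with IFN-γ and -0.88 with PMA only (adjusted p = 7.4e-13 and 1.3e-12, edgeR's quasi-likelihood test). SERPINE2, a serine protease inhibitor, was lower too, at -0.89 and -0.94 (adjusted p = 4.1e-06 and 5.3e-07). PCSK5, a proprotein convertase, was higher, at 0.70 and 0.98 (adjusted p = 5.7e-06 and 3.6e-09). THBS1, a matricellular protein that binds proMMP2 and proMMP9, was higher in knockout cells by 2.22 with PMA only (adjusted p = 1.0e-10). With IFN-γ THBS1 averaged 3.22 CPM in knockout cells and 1.04 CPM in wild-type cells.

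ADAM and ADAMTS genes encode metalloproteinases that shed surface proteins or cut proteoglycans, and several are inhibited by TIMP3. The list also held ADAMTSL4 and ADAMTSL5, ADAMTS-like proteins with no protease domain. Of 17 tested, 3 rose and 5 fell with IFN-γ in knockout cells (all genes: 29.2% and 31.8%), and 3 rose and 3 fell in wild-type cells (all genes: 28.6% and 27.9%). ADAMTS1 fell, with a log2 change of -3.46 in knockout cells and -3.74 in wild-type cells (adjusted p = 1.1e-22 and 4.5e-20, edgeR's quasi-likelihood test), and ADAM28 rose by 0.75 in knockout cells and 1.17 in wild-type cells. Relative to wild-type cells, knockout cells had 6 of them higher and 2 lower with IFN-γ, and 11 were higher and 2 lower with PMA only (all genes: 22.9% and 24.3% with IFN-γ, 25.4% and 24.8% with PMA only). ADAM9 was lower in knockout cells, with a log2 difference of -0.51 with IFN-γ and -0.92 with PMA only, and ADAMTSL4 was higher, at 0.87 and 0.97 (adjusted p at most 8.5e-12 for both genes in each).

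Genes of MMP substrates mostly fell with IFN-γ. The list held matrix proteins together with others, such as the chemokine CXCL8, the plasma protease inhibitor SERPINA1 and the cell-surface proteoglycan SDC4. Of 16 tested, 3 rose and 12 fell in knockout cells, and 2 rose and 13 fell in wild-type cells (all genes: 29.2% rose and 31.8% fell in knockout cells, 28.6% rose and 27.9% fell in wild-type cells), with a median log2 change of -0.62 in knockout cells and -0.48 in wild-type cells. VCAN (versican) fell, with a log2 change of -2.99 in knockout cells and -2.18 in wild-type cells, and so did NID1 (nidogen, of the basement membrane), at -1.20 in knockout cells and -1.82 in wild-type cells (adjusted p at most 1.4e-12, edgeR's quasi-likelihood test). SPP1 (osteopontin) rose by 1.23 in knockout cells and by 0.31 in wild-type cells, the smaller of which was lost with total-count scaling (adjusted p = 0.21). Between genotypes 8 were higher and 7 lower in knockout cells with IFN-γ (all genes: 22.9% and 24.3%), and 8 higher and 6 lower with PMA only (all genes: 25.4% and 24.8%). COL4A1 and COL4A2, collagen IV chains of the basement membrane that gelatinases cut, were lower in knockout cells with PMA only. Their log2 differences were -2.54 and -2.87 (adjusted p = 1.3e-12 and 1.7e-12), and HSPG2 (perlecan) was higher, by 1.04 (adjusted p = 9.5e-14). With IFN-γ COL4A1 averaged 0.0813 CPM in knockout cells and 1.23 CPM in wild-type cells, and COL4A2 0.583 CPM and 2.80 CPM. HSPG2 averaged 44.4 CPM in knockout cells and 23.3 CPM in wild-type cells with IFN-γ.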

How the data were processed

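The 12 poly(A) libraries came from a stranded kit and 1 µg of RNA, per the labels. The authors deposited raw counts of reads on the exons of each gene on hg38, made with featureCounts 2.0.3, with no strand option and with mates counted separately, per the file headers. Reads on exons of several genes were not assigned, by that program's default. The submitters' processing notes also name fastp 0.23.2 and STAR 2.7.10b, among others, and the aligner behind the counts is not given in the sources used here.

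From the counts, CPM, TPM (from the length column) and fold changes were computed here. Genes were filtered with filterByExpr, libraries scaled by TMM, and all 12 libraries fitted once with edgeR 4.0.16 (quasi-likelihood test, group only, two-sided). Calls were made at a Benjamini-Hochberg adjusted p under 0.05 over 17119 genes. The scripts were tested on simulated data. The members and lists were chosen with earlier results of these data known. Named genes were all members, other MMP or TIMP genes at 1 CPM or more, chromosome 11 neighbours, and some of the up to 3 largest called changes per direction, list and comparison at 5 CPM or more. DESeq2, limma, other scalings and filters, a replicate block, fits of the compared groups and leaving out each library were alternatives. Depth set a floor of 3 counts, 0.102 to 0.127 CPM, and SDs and intervals cover the spread between libraries only.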

Additional observations from a re-analysis of the deposited data

Results flagged for a closer look

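The response to IFN-γ differed between knockout and wild type for 3 members by the test of the difference itself (edgeR's quasi-likelihood test, adjusted over all genes). The choice of members used the genotype differences that make up this value, so the calls are not free of that choice. For TIMP3 the difference of the log2 responses, knockout minus wild type, was 1.45, from -2.10 in knockout cells and -3.55 in wild-type cells. For MMP19 it was 0.72, from -0.70 in knockout cells and -1.41 in wild-type cells. For MMP14 it was 0.30, from 0.38 in knockout cells and 0.08 in wild-type cells. With PMA only TIMP3 was lower in knockout cells, at 57.3 ± 2.1 CPM against 133 ± 5.4 CPM in wild-type cells (SD, n = 3 each), while with IFN-γ both genotypes lay at 10.3 to 14.3 CPM.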

How the results depend on the processing

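Most results kept their direction and call. With library totals alone the median gene shifted with IFN-γ by -0.30 (log2) in knockout cells and -0.25 in wild-type cells, and with upper-quartile scaling by -0.12 and -0.11, so directions are relative to the median gene. With TMM the share of calls that were higher was 47.9% in knockout cells and 50.7% in wild-type cells, against 23.4% and 25.1% with totals alone and 36.4% and 37.5% with the upper quartile. With totals alone this share was 35.6% between genotypes with IFN-γ (48.6% with TMM) and 35.0% for the difference of responses (49.2% with TMM), and MMP7 differed between genotypes with IFN-γ by 2.19. In knockout cells, with upper quartile and totals alone, MMP9 was -0.025 and -0.20, TIMP1 -0.087 and -0.27, and TIMP2 -0.11 and -0.29. In wild-type cells MMP9 was -0.078 and -0.21, MMP14 -0.035 and -0.17, and TIMP1 -0.069 with totals alone. At 5 CPM in 3 libraries TIMP1 was -0.017 and TIMP2 -0.041 in knockout cells. MMP14 between genotypes with PMA only was -0.015 with totals alone. With DESeq2 the MMP7 difference of responses was 0.000169. Leaving out each library gave -0.0089 to 0.047 for TIMP2 in knockout cells, -0.0096 to 1.09 for MMP1 in wild-type cells, -0.48 to 0.14 for the MMP7 difference of responses and -0.0060 to 0.041 for MMP14 between genotypes with PMA only. It gave 3 to 5 members with differing responses, 5 without replicate 1 of the PMA-only wild type (MMP7 and TIMP1 added). The MMP9 call in knockout cells was lost without replicate 1 with IFN-γ or replicate 2 or 3 with PMA only, and with the filter at 5 CPM. The MMP1 call there was lost with totals alone. These causes were not tested beyond the scaling itself. With the replicate number as a block, 7, 6 and 3 members were called in knockout cells, wild-type cells and the difference of responses, MMP14 in wild-type cells being lost (adjusted p = 0.052, edgeR). Deviations of same-numbered libraries correlated at -0.15 to 0.21, over 0.1 in 2 of 18 pairs. Those of differently numbered libraries correlated at -0.19 to 0.21, over 0.1 in 6 of 36 pairs. No pairing by number was seen, and 3 libraries per group cannot exclude it. Depth limits MMP1 and MMP12.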

Other observations

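Transcription factors known to act on MMP promoters were also listed, 25 in all, of which 23 were tested. With IFN-γ 13 were higher and 5 lower in each genotype (all genes: 29.2% higher and 31.8% lower in knockout cells, 28.6% higher and 27.9% lower in wild-type cells). STAT3, a transcription factor activated by cytokine receptors, rose by 1.70 on the log2 scale in each genotype (adjusted p = 1.0e-27 in knockout cells and 1.3e-27 in wild-type cells, edgeR's quasi-likelihood test). FOS, a subunit of AP-1, fell, with a log2 change of -1.23 in knockout cells and -0.76 in wild-type cells. FOSL2, another subunit, changed by -0.64 in knockout cells and -0.61 in wild-type cells. The subunits JUNB and JUND went the other way. JUNB averaged 115.9 CPM with IFN-γ and 49.7 CPM with PMA only in knockout cells, and 94.5 CPM and 56.3 CPM in wild-type cells. JUND averaged 114.9 CPM and 66.2 CPM in knockout cells, and 92.4 CPM and 57.2 CPM in wild-type cells. Between genotypes 9 were higher and 8 lower in knockout cells in each treatment (all genes: 22.9% and 24.3% with IFN-γ, 25.4% and 24.8% with PMA only). FOSL2 was higher in knockout cells by 0.71 with IFN-γ and 0.74 with PMA only (adjusted p = 1.5e-14 and 1.7e-15 by the same test). JUN, its AP-1 partner, was lower, at -0.75 with IFN-γ and -1.09 with PMA only (adjusted p = 7.7e-13 and 6.3e-17 by the same test). With IFN-γ the JUNB and JUND means were higher in knockout cells than in wild-type cells. With PMA only the JUND mean was higher and the JUNB mean lower.

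Markers of undifferentiated cells and granulocytes (7 genes) summed to 103 to 114 CPM in knockout cells and 82.0 to 89.9 CPM in wild-type cells with IFN-γ, and to 423 to 444 CPM in knockout cells and 359 to 410 CPM in wild-type cells with PMA only. Single genes went apart. With IFN-γ 4 granule proteins were higher in knockout cells, with AZU1 at 44.8 CPM in knockout cells and 16.2 CPM in wild-type cells, CTSG at 19.3 CPM in knockout cells and 3.33 CPM in wild-type cells, ELANE at 18.7 CPM in knockout cells and 4.35 CPM in wild-type cells, and PRTN3 at 8.39 CPM in knockout cells and 1.30 CPM in wild-type cells, while MKI67, a proliferation marker, stood at 8.47 CPM in knockout cells and 44.7 CPM in wild-type cells. CEBPE averaged 8.85 CPM in knockout cells and 15.8 CPM in wild-type cells with IFN-γ. MPO averaged 1.035 CPM in knockout cells and 2.39 CPM in wild-type cells with PMA only. Of the 7 genes 4 were called higher and 2 lower in knockout cells in each treatment. Over all genes 22.9% were higher and 24.3% lower with IFN-γ, and 25.4% and 24.8% with PMA only. Their part in the MMP and TIMP values was not tested.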
